A study of Mus musculus with 4 samples.

Results

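The 10 genes described here act in energy sensing, the signaling around it, or carbon metabolism: Prkag1, Eef2, Tsc1, Igf1r, Lipe, Pgam1, Slc16a1, Pdhx, Suclg1 and Cox7a2. They were taken from a table of peaks of pSTAT3-Y705, the active, tyrosine-phosphorylated form of STAT3, because the table names each of them as the gene nearest to a peak. They are 10 of 958 genes so named, and they hold 20 of 3218 distinct peaks when peaks are counted per library. Overlapping peaks with different ends count separately there. The genes were chosen for the libraries that list them, so the pattern over libraries is a description and no test was made of it.

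The study mapped pSTAT3-Y705 by chromatin immunoprecipitation and sequencing (ChIP-seq) in Lin-Sca1+cKit+ (LSK) bone marrow cells, the fraction with the hematopoietic stem cells and early progenitors. It asked where the active factor sat in leukemic stem and progenitor cells that persisted under a tyrosine kinase inhibitor (TKI). CML-TKI denotes LSK cells of mice with chronic myeloid leukemia (CML) that were given imatinib, an inhibitor of the BCR-ABL kinase, CML denotes those of untreated leukemic mice, and WT those of untreated wild-type mice. All were on the C57BL/6 background, and each group was 1 library. By the study's methods the leukemic mice were double transgenic BCR-ABL×SCL-tTA animals, which carry a tetracycline-controlled activator. The study states that withdrawal of tetracycline turns on BCR-ABL in their stem cells. Imatinib was given every other day, at 200 mg/kg over 4 weeks by the sample label but at 400 mg/kg over 30 days by the treatment protocol. How many animals gave each library, and whether they were primary or transplanted mice, is not given in the sources used here. An IgG input sample completed the 4 ChIP samples and was not analysed here.

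STAT3 is a transcription factor that is phosphorylated on a tyrosine downstream of cytokine and growth factor receptors, enters the nucleus as a dimer and binds a palindromic DNA motif. AMP-activated protein kinase (AMPK) senses a fall in cellular energy, restrains protein synthesis through the mTORC1 and eEF2 branches and shifts cells toward fuel use. Carbon from glucose passes through glycolysis to pyruvate, which leaves the cell as lactate or enters the tricarboxylic acid (TCA) cycle through pyruvate dehydrogenase, and the respiratory chain then oxidizes the products.

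The promoter sequences of the genes on which the positions turn are shown first. They are RefSeq windows of the GRCm38.p6 assembly that reach from 250 bases before to 50 bases after the transcription start site (TSS), and 10 of 10 genes matched an entry. In the 4 that follow, capitals mark the bases under the wider CML-TKI peak, placed by its listed distance to the TSS. The table's own coordinates are those of mm9, another assembly. For the genes with full peak ends, the offset between the table's TSS and the RefSeq TSS was shared by 4 to 12 other genes of the same chromosome. The window of Prkag1 is chr15:98831459-98831758 on the minus strand, that of Tsc1 chr2:28640983-28641282 on the plus strand, that of Suclg1 chr6:73248255-73248554 on the plus strand and that of Cox7a2 chr9:79759804-79760103 on the minus strand.
Prkag1: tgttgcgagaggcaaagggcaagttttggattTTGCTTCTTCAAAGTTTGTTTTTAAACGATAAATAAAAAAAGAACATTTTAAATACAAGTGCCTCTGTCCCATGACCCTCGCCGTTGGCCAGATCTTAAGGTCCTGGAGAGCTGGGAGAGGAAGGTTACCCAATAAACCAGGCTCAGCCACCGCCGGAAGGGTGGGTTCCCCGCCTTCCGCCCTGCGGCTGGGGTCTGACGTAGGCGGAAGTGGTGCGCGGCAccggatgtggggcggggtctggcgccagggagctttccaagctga
Tsc1: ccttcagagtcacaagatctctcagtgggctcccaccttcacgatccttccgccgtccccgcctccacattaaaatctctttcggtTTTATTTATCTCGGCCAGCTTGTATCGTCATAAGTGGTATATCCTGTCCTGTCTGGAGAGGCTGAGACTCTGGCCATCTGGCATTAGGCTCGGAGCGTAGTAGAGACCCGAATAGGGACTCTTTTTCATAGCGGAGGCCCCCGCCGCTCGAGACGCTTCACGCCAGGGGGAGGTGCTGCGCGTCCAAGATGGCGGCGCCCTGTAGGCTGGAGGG
Suclg1: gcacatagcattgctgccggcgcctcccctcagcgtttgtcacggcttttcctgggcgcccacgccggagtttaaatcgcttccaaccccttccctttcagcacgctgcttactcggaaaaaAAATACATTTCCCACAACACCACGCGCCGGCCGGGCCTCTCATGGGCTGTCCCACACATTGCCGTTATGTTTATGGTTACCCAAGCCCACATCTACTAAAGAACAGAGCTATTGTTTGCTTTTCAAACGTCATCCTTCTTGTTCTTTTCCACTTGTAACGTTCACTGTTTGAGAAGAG
Cox7a2: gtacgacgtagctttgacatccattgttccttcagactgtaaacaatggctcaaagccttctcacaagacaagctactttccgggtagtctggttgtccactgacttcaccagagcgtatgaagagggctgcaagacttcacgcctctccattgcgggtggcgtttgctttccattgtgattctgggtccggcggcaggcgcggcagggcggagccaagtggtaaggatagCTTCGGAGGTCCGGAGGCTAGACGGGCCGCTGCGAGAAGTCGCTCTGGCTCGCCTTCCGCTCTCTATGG

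The other windows shown are those of Eef2 (chr10:81176381-81176680, plus strand) and Lipe (chr7:25395938-25396237, minus strand), in which capitals mark a match to the STAT motif.
Eef2: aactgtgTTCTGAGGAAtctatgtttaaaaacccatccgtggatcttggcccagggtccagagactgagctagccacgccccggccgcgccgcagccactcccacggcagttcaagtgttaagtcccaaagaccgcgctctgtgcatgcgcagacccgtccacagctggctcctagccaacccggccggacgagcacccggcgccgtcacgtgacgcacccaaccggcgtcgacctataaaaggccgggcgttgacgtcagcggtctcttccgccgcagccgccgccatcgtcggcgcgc
Lipe: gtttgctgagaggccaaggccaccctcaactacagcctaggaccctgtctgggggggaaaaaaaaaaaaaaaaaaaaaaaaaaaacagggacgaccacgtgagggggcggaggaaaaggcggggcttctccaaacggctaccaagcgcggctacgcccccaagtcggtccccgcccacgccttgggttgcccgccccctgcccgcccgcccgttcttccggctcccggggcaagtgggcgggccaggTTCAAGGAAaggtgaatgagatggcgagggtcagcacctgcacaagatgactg

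The CML-TKI library named all 10 genes, the CML library 3 and the WT library 3. Beside these counts, the CML-TKI library named 2.69% of all protein-coding genes, the CML library 1.93% and the WT library 1.03%. Since the genes were picked from the named ones, nothing is read from that difference. A peak within 1000 bp of the TSS, called a promoter peak here, was listed by CML-TKI for 7 of the genes, by CML for 3 and by WT for 2. Of all protein-coding genes, 0.881% had a promoter peak by the CML-TKI list, 0.507% by the CML list and 0.279% by the WT list. Igf1r, Slc16a1 and Pdhx had distal peaks only. In all, 7 of 10 genes had a promoter peak in some library, beside 295 of all 958 named genes (30.8%). The 10 genes were chosen with earlier results of these data known, so nothing is read from this contrast either.

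Of the possible patterns over libraries, 4 occurred among the 10 genes. Prkag1 was named in all 3 libraries, a pattern shared by 134 of the 958 named genes (14.0%). Eef2 and Cox7a2 were named in CML-TKI and CML, as were 83 genes in all (8.66%). Pgam1 and Slc16a1 were named in CML-TKI and WT, as were 127 genes in all (13.3%). Tsc1, Lipe, Igf1r, Suclg1 and Pdhx were named in CML-TKI alone, the pattern of 337 genes in all (35.2%). None of the 10 was named in CML alone, where 276 genes were, and the choice of genes fixes this. Of all named genes, 0 were named in CML and WT without CML-TKI, and 1 (0.104%) was named in WT alone. Among the listed peaks, nearly every gene named in WT was thus also named in CML-TKI. The study describes more sites than are listed, some of them unique to control mice. How far binding in normal LSK cells overlaps that after imatinib is therefore not shown here. No read count or enrichment value stands beside a peak, so the depth is unknown, a gene without a peak cannot be told from a gene whose peak missed the caller's threshold, and peaks from fewer cells cannot be told apart from weaker binding per cell.

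**Figure D1:**
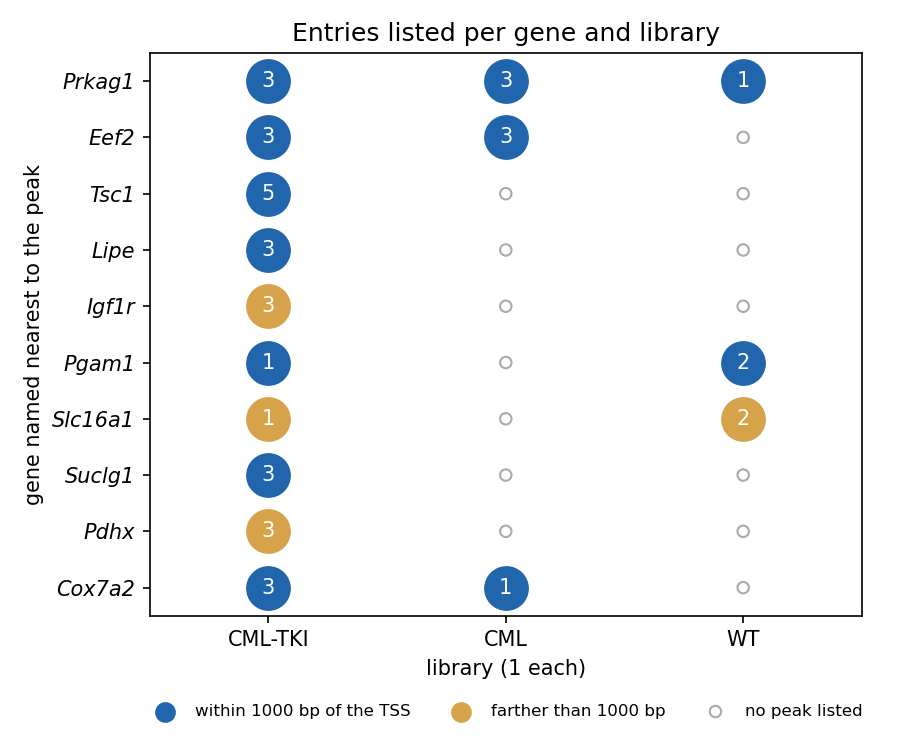
Number of entries in the peak table (digit in each circle) for the 10 genes in the CML-TKI, CML and WT libraries, 1 library each; blue circles are peaks within 1000 bp of the TSS, ochre circles peaks farther away, and small open circles mark no listed peak. CML-TKI has entries for all 10 genes, while CML and WT have entries for 3 genes each, and only Prkag1 has entries in all 3.

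The table repeats peaks, up to 4 times within a library. For the 10 genes it holds 28 of 3529 CML-TKI entries, 7 of 1464 CML entries and 5 of 1031 WT entries. With each peak counted once, these became 14 of 1757 CML-TKI peaks, 3 of 715 CML peaks and 3 of 746 WT peaks. What the repeats stand for is not given in the sources used here, and they were not used as a measure of strength.

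Of the genes of energy sensing and the signaling around it, Prkag1 encodes the gamma-1 regulatory subunit of AMPK, which binds adenine nucleotides. In CML-TKI it had a peak of 221 bp at chr15:98661936-98662157 (mm9), centred 107 bp upstream of the TSS, and a second of 183 bp at chr15:98661938-98662121, centred 90 bp upstream. The narrower peak was also listed in CML and in WT, with the same first and last base. All 3 libraries therefore placed Prkag1 at a single promoter site, and the wider CML-TKI peak began 2 bp before it and ended 36 bp beyond it. On the transcribed strand these 36 bp lie on the upstream side, where the wider peak reached to -218 and the shared peak to -182. The capitals in the Prkag1 window run up to position 4, counted from the TSS base as 0.

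Eef2 encodes eukaryotic elongation factor 2, which moves the ribosome along the mRNA and is inhibited by its own kinase when energy is low. CML-TKI listed a peak of 192 bp at chr10:80639418-80639610 and a peak of 175 bp at chr10:80639444-80639619. CML listed the peak of 175 bp with identical ends, and WT listed no peak for Eef2. Both peaks lay just downstream of the start, at 138 and 155 bp, in intron 1 of 13 and in a CpG island by the table's annotation. The peak listed in CML-TKI alone began 26 bp and ended 9 bp before the shared one.

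Tsc1 encodes hamartin, which with tuberin restrains mTORC1, the kinase complex that promotes protein synthesis. It was listed in CML-TKI alone, with a peak of 190 bp at chr2:28496589-28496779 and an overlapping peak of 215 bp at chr2:28496590-28496805. Both spanned the start site, beginning 164 bp upstream of it and ending 26 and 52 bp downstream. Neither CML nor WT listed a peak that names Tsc1.

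Igf1r encodes the receptor of insulin-like growth factor 1, a tyrosine kinase that signals growth factor supply. Its only peak was in CML-TKI, 148 bp wide, at chr7:75096035-75096183 in intergenic sequence annotated as a CpG island. Its centre lay 1034 bp upstream of the TSS and so just outside the promoter limit, while the peak itself reached from -1108 to -960. The farthest gene inside the limit was Pgam1, at 386 bp.

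Lipe encodes hormone-sensitive lipase, which releases fatty acids from stored lipid and is a substrate of AMPK. It had a single peak, in CML-TKI, of 146 bp at chr7:26181304-26181450, from -444 to -298 relative to the TSS. The peak therefore ended before the promoter window shown above began.

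Of the genes of glycolysis and lactate transport, Pgam1 encodes phosphoglycerate mutase 1, an enzyme of the lower part of the pathway. A peak of 254 bp at chr19:41985848-41986102, 386 bp upstream of the TSS, was listed in CML-TKI and, with identical ends, in WT. CML did not list it. Slc16a1 encodes the monocarboxylate transporter MCT1, which carries lactate and pyruvate across the plasma membrane. Its peak was listed in CML-TKI and WT at the same distance of 62465 bp from the TSS, but only with ends rounded to 1 Mb on chromosome 3, so that no exact position or width can be given. That site lies downstream of the start and, with a locus of 19799 bp in the RefSeq gene table, about 42666 bp past the gene's end. Pgam1 and Slc16a1 thus shared their libraries but not their position.

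Of the mitochondrial genes, Pdhx encodes the component X of the pyruvate dehydrogenase complex, which anchors dihydrolipoamide dehydrogenase to the core. Its only peak, in CML-TKI, was 197 bp wide at chr2:102853010-102853207 and lay 60562 bp downstream of the TSS, about 8103 bp past the end of a locus of 52459 bp. It fell in a short interspersed repeat of the B2 family (B2_Mm2), the annotation of 2.45% of CML-TKI peaks, 2.94% of CML peaks and 2.68% of WT peaks. Reads from repeat copies can be placed at several loci. The study's methods restrict the fold over input of a peak to reads with a unique position and state no such limit for peak calling.

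Suclg1 encodes the alpha subunit of succinyl-CoA ligase, a TCA cycle enzyme. Its peak, in CML-TKI alone, was 262 bp wide at chr6:73198371-73198633 and sat almost centred on the start site, reaching from -128 to 134 relative to it. It was the widest peak of the 10 genes. Cox7a2 encodes a nuclear subunit of cytochrome c oxidase, the last complex of the respiratory chain. CML-TKI and CML shared a peak of 228 bp at chr9:79607451-79607679, and CML-TKI also listed one of 174 bp at chr9:79607504-79607678. The Cox7a2 peaks began 19 and 18 bp upstream of the start and lay mostly in the transcribed part, with the narrower one 53 bp shorter at its far end. WT listed neither.

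**Figure D2:**
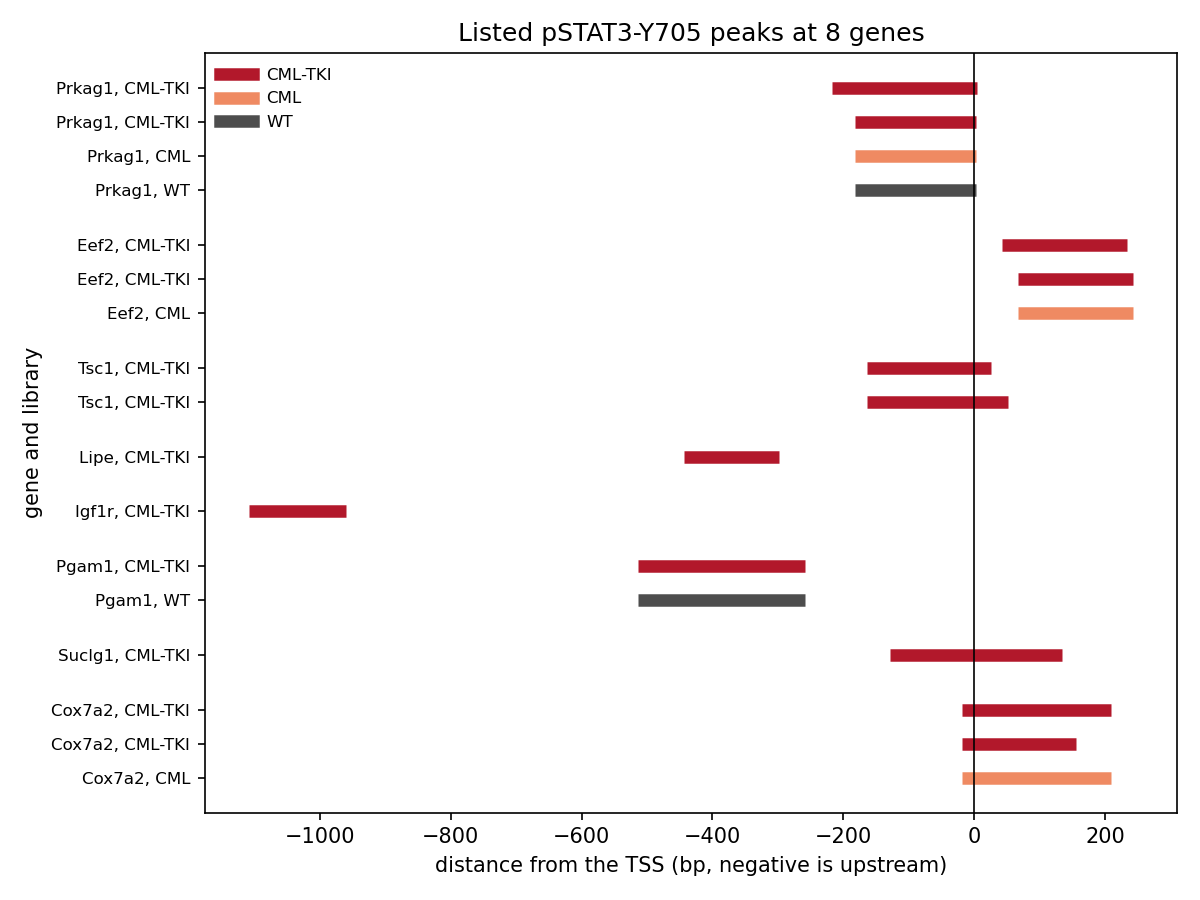
Extent of each listed pSTAT3-Y705 peak relative to the TSS (bp, negative is upstream; vertical line at 0) for the 8 genes with the nearest peaks, 1 bar per distinct peak, colored by library. The peaks of Prkag1, Tsc1, Suclg1 and Cox7a2 cover the start site, those of Eef2 lie downstream, and those of Lipe, Pgam1 and Igf1r lie wholly upstream.

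Where 2 libraries listed the same gene, they listed the same site. CML-TKI and CML shared 3 sites (Prkag1, Eef2 and Cox7a2), CML-TKI and WT shared 3 (Prkag1, Pgam1 and Slc16a1), and CML and WT shared 1 (Prkag1). Of the peaks of these genes with full ends, 4 of 13 from CML-TKI, 3 of 3 from CML and 2 of 2 from WT had both ends identical to a peak of another library. Among all peaks with full ends this held for 32.3% of those from CML-TKI, 54.7% of those from CML and 41.7% of those from WT. By the study's methods, peaks of the libraries were also merged with one another to find overlaps. Whether the identical ends in this table come from that step was not tested.

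The peaks of the 10 genes were of ordinary or small width for their libraries. In CML-TKI they were 146 to 262 bp wide, where the median of all peaks was 217 bp (quartiles 169.5 and 329), and 4 of 13 exceeded it. In CML they were 175 to 228 bp wide against a median of 187 bp, and 1 of 3, that of Cox7a2, exceeded it. In WT they were 183 and 254 bp wide against a median of 348 bp, and 0 of 2 exceeded it. The Suclg1 peak was as wide as or wider than 62.9% of CML-TKI peaks, and the Lipe and Igf1r peaks than 6.43% and 7.76%. The same Prkag1 interval of 183 bp ranked at 33.2% of CML-TKI widths, 47.5% of CML widths and 15.6% of WT widths.

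**Figure D3:**
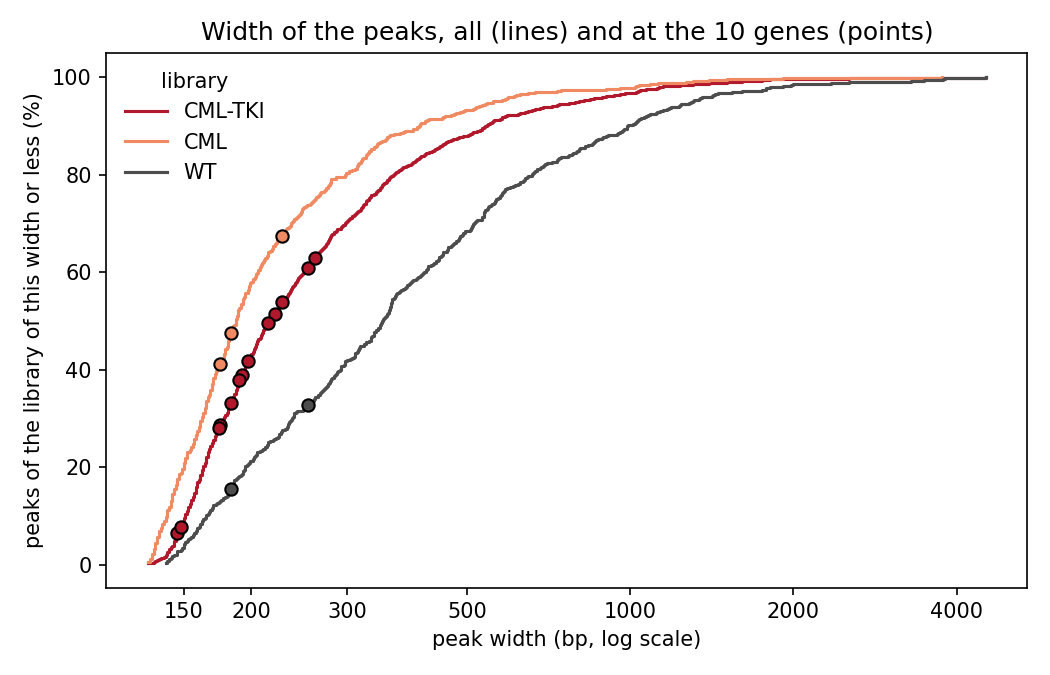
Cumulative share of peaks (%) by peak width (bp, log scale) in the CML-TKI, CML and WT libraries (lines), with the peaks of the 10 genes as points on the line of their library. The points lie at widths of 146 to 262 bp, in the lower part of the WT curve and in the lower to middle part of the CML-TKI and CML curves.

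The sites stood apart from other listed peaks. The nearest other peak to the Prkag1 site in CML-TKI lay 40306 bp away and named Kmt2d, which encodes a histone methyltransferase and is the neighbour of Prkag1, its annotated end being 161 bp upstream of Prkag1 on the same strand. In CML the nearest peak to Prkag1 named Amigo2 at 1519332 bp, and in WT Nfe2 at 4426626 bp. Kmt2d was listed in CML-TKI alone. The Prkag1 peaks, which reach to -218 or -182, therefore extend past the annotated end of Kmt2d. The Eef2 site had its nearest peak at Map2k2 in CML-TKI, 70456 bp away, and at Oaz1-ps in CML, 349762 bp away. For Tsc1, Igf1r, Pgam1, Suclg1, Pdhx and Cox7a2 the nearest peak was at least 1128539 bp away, the distance from the first Tsc1 peak to the peak of Wdr5.

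Other genes overlap or lie near several of these loci, and the table names 1 gene per peak. The gaps given here are between gene loci and are not distances to the peaks. In the RefSeq gene table Cox7a2 overlaps Tmem30a, which encodes a subunit of phospholipid flippases, and Lipe overlaps the long noncoding RNA 4732471J01Rik. Cxcl17, a chemokine gene, lies 1567 bp upstream of Lipe, and Pias4, which encodes a SUMO ligase, lies 8911 bp upstream of Eef2 in the divergent direction. Among genes within 10 kb of the 10 loci, Kmt2d was the only neighbour that the table named in any library.

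The promoter windows were rich in CpG dinucleotides. Over the 10 genes the share of G and C was 51.0 to 76.0% with a median of 62.8%, where the median of all 32851 windows was 52.7%. The ratio of observed to expected CpG was 0.68 to 1.11 with a median of 0.9, where the median of all windows was 0.38. The 7 genes with a promoter peak had medians of 57.3% and 0.83. Igf1r (76.0%, 48 CpG), Slc16a1 (73.7%, 42 CpG) and Pdhx (67.3%, 28 CpG), whose peaks were distal, had the highest G and C shares of the 10. Suclg1 had the lowest share, 51.0%, at the 43rd percentile of all windows, although its CpG ratio of 0.93 was at the 89.7th.

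**Figure D4:**
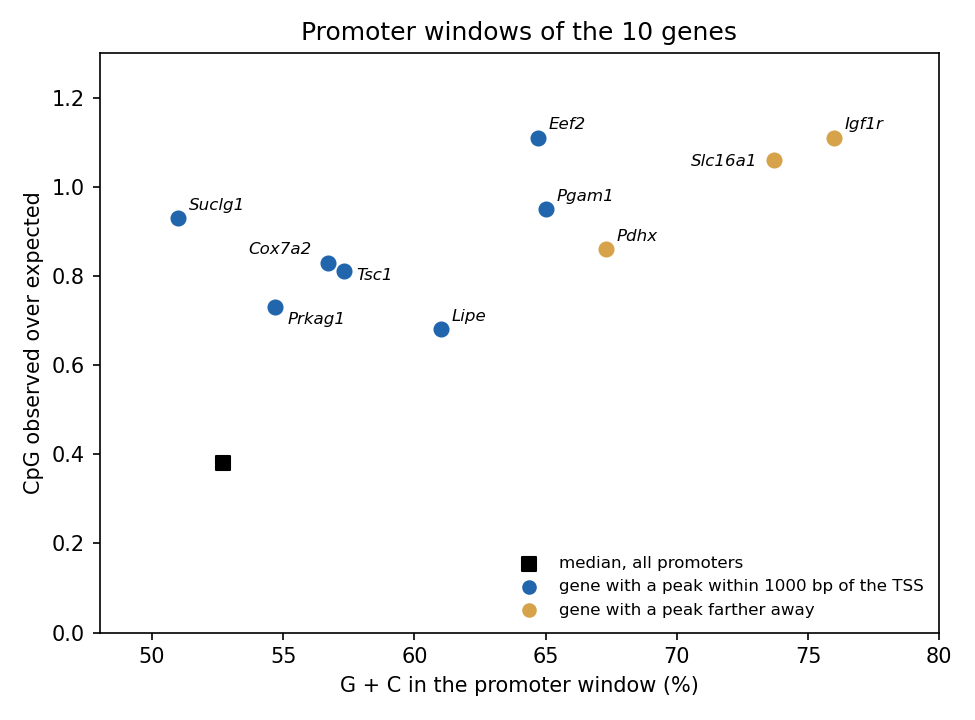
Share of G and C (%) and ratio of observed to expected CpG in the promoter window of each of the 10 genes (circles), with the median of all promoter windows (black square); blue marks genes with a peak within 1000 bp of the TSS and ochre genes with a peak farther away. All 10 circles lie above the square's CpG ratio of 0.38, and Suclg1 alone lies left of its G and C share of 52.7%.

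The STAT motif was searched as TTCNNNGAA and as the same arms with 4 bases between them, forms that each equal their own reverse complement, so that 1 search covers both strands. A match was found in 2 of 10 windows, Eef2 and Lipe, against 14.6% of all windows. The Eef2 match has 4 bases between the arms. TTCNNNGAA alone matched 1 of 10 windows, that of Lipe, against 8.3% of all windows. The Eef2 match, TTCTGAGGAA from -243 to -234, lies upstream of the start while the Eef2 peaks lie from 42 to 243 bp downstream. The Lipe match, TTCAAGGAA from -3 to 5, lies at the start while the Lipe peak ends at -298. Neither match thus lies under the listed peak of its gene. The windows of Prkag1, Tsc1, Suclg1 and Cox7a2, which hold all or part of their peaks, contained no match to these letters. The parts of the Tsc1, Suclg1 and Cox7a2 peaks beyond the window were not searched. The peaks of Lipe, Igf1r, Pgam1, Slc16a1 and Pdhx lie wholly outside their windows, and those of Eef2 wholly or almost so. Their sequence was therefore not searched, and the counts over 10 windows do not describe the sequence under the peaks.

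Motifs of common promoter factors were searched on both strands, with letters chosen after the windows had been seen. The GC box GGGCGG was present in 7 of 10 windows, against 35.7% of all windows, with 6 copies in Lipe, and the 3 windows without it were Eef2, Tsc1 and Suclg1. The ETS motif CCGGAAG was present in Prkag1, from -65 to -59 and so under the peak of all 3 libraries, and in Lipe from -36 to -30, outside its peak, against 8.86% of all windows. The letters CCAAT occurred in Prkag1 from -89 to -85, again under the shared peak, and in Pdhx from 20 to 24, against 37.4% of all windows. The YY1 motif AAGATGGC occurred in Tsc1 alone, from 21 to 28, within the wider CML-TKI peak and across the end of the narrower one, against 2.75% of all windows. The letters TATAAA occurred in Eef2 alone, from -15 to -10, against 13.6% of all windows. These matches describe the letters only.

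Over 13 lists with 206 genes of energy sensing and carbon metabolism, CML-TKI peaks named 14 genes (6.8%), CML peaks 5 (2.43%) and WT peaks 4 (1.94%). The 10 genes are among the 206 and were picked because a peak names them, so these counts are a description, and neither they nor the counts left without the 10 genes can be set against the share of all protein-coding genes. Besides the 10 genes, the lists held 4 genes named by CML-TKI, 2 named by CML and 1 named by WT. By identifier in place of name, CML-TKI peaks named 13 genes of the lists, 3 of them besides the 10. Within 5000 bp of the TSS the lists held 8 named genes in CML-TKI, 3 by the CML list and 2 by the WT list, all of them among the 10 genes. Of all protein-coding genes, 1.14% were named within that distance by CML-TKI, 0.708% by CML and 0.379% by WT, and nothing is read from the difference, for the same reason.

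By role, the AMPK complex had 1 of 7 genes named in each library, which was Prkag1, and the kinases upstream of AMPK had 0 of 6. The mTORC1 and translation list had 2 of 11 in CML-TKI (Tsc1 and Eef2), 1 in CML (Eef2) and 0 in WT. Insulin and IGF signaling had 2 of 15 in CML-TKI (Igf1r and Pik3r1), 1 in CML (Pik3r1) and 0 in WT. Glycolysis had 1 of 25 in CML-TKI and the same gene, Pgam1, in WT, but 0 in CML. The TCA cycle had 1 of 21 in CML-TKI, Suclg1, and 0 in CML and in WT. The lipid and glucose targets of AMPK had 2 of 22 in CML-TKI (Lipe and Tbc1d1), 0 in CML and 1 in WT (Tbc1d1). Lactate and pyruvate transport had 1 of 7 in each library, Slc16a1 in CML-TKI and WT but Slc16a7 in CML. The pyruvate dehydrogenase list had 2 of 12 in CML-TKI, Pdhx and, by name but not by identifier, Pdk1. Cytochrome c oxidase had 2 of 16 in CML-TKI (Cox7a2 and Cox7c) and 1 in CML (Cox7a2), with no other gene of these lists named elsewhere. Fatty acid oxidation (21 genes), the pentose phosphate pathway (10 genes) and the respiratory complexes other than cytochrome c oxidase (33 genes) had none in any library.

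The other pathway genes that were named had distant peaks. Pik3r1, which encodes the regulatory subunit of phosphoinositide 3-kinase, had an intergenic peak at chr13:102571395-102571557 in CML-TKI and CML, 33304 bp from its TSS on the upstream side. Tbc1d1, which encodes a Rab GTPase activator regulated by AMPK, had a peak in intron 2 of 19 at chr5:64582359-64582502 in CML-TKI and WT. Cox7c, another subunit gene of cytochrome c oxidase, was named in CML-TKI from 356157 bp away, and Slc16a7, the gene of the related transporter MCT2, was named in CML alone from 127520 bp away. Pdk1, a pyruvate dehydrogenase kinase gene, was named in CML-TKI, but the identifiers of that peak on chromosome X belong to Fam47c, and by identifier CML-TKI names 3 list genes besides the 10. Pik3r1 and Tbc1d1 thus repeat, at distal sites, the patterns of Eef2 and Pgam1.

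**Figure D5:**
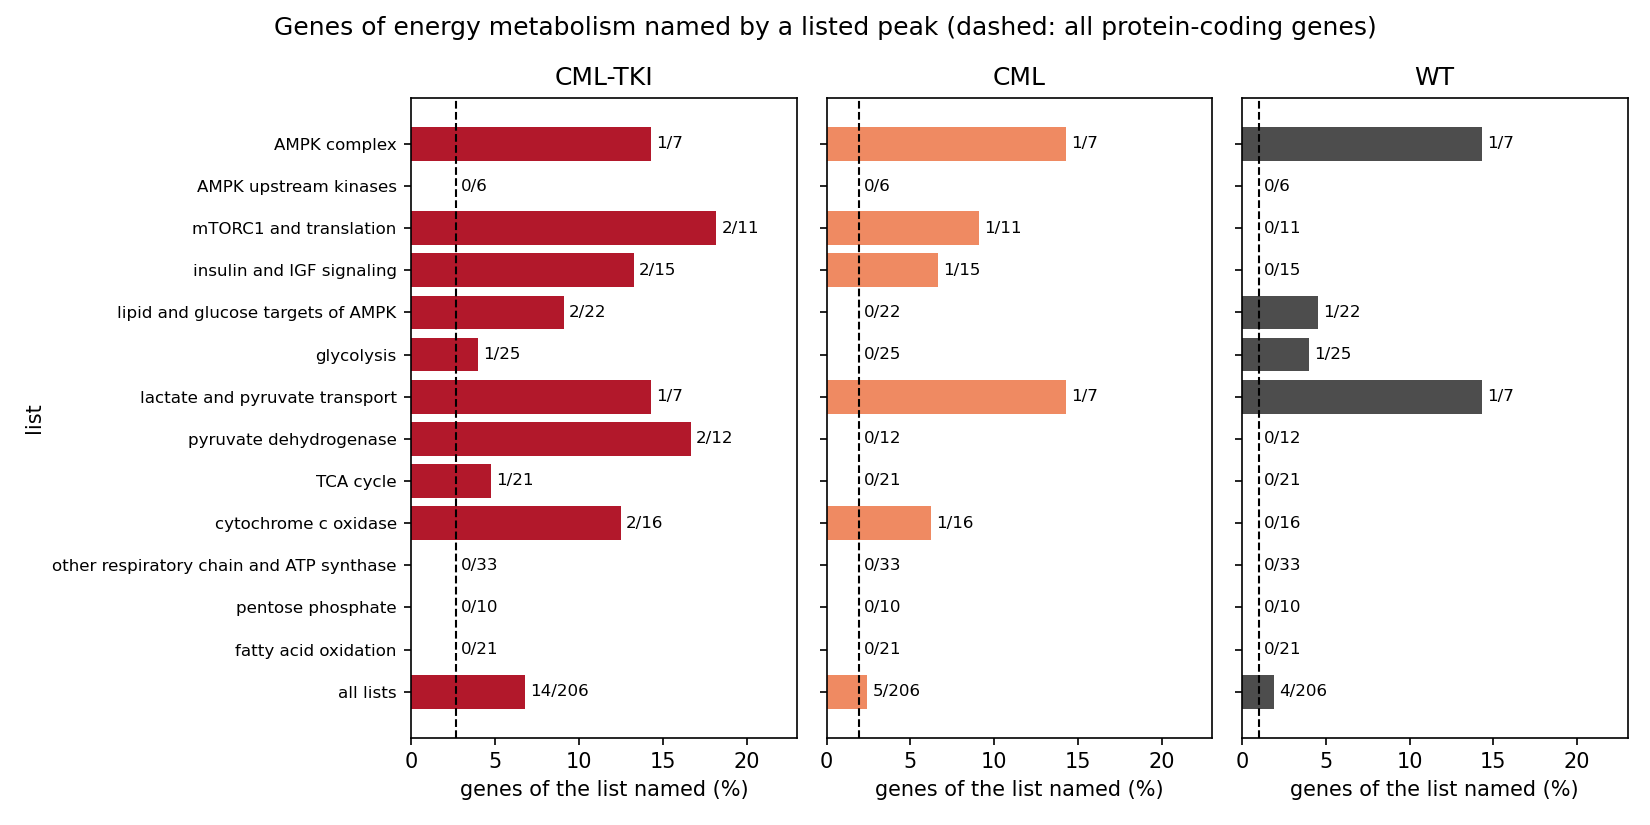
Share of genes (%) of each pathway list that a peak names in the CML-TKI, CML and WT libraries, with the count beside each bar and a dashed line at the share of all protein-coding genes named in that library. Bars of single lists hold 1 or 2 genes each, and most of those genes are among the 10, which were picked for having a peak.

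Peaks that name marker genes of the labelled cell type and of other cell types were counted. Of 10 LSK and stem cell markers, 5 were named in CML-TKI (Kit, Slamf1, Gata2, Runx1 and Etv6), 1 in CML (Kit) and 4 in WT (Kit, Slamf1, Runx1 and Etv6). The B cell, T cell and erythroid markers (6, 5 and 5 genes) had none in any library, and of 7 myeloid markers Lyz1 was named in CML-TKI alone. Peaks at any distance were counted here. For scale, peaks of the WT library named 1.03% of all protein-coding genes, those of the CML library 1.93% and those of the CML-TKI library 2.69%. In a list of 5 or 6 genes, 0 named genes cannot be told from such shares. The lists were not tested against these shares or against one another. A peak that names a marker does not measure its expression, so the purity of the sort was not tested.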

How the data were processed

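pSTAT3-Y705 ChIP-seq peaks of LSK cells were analysed from 1 deposited table with CML-TKI, CML and WT entries. By the study's methods, the authors removed duplicates and adapters, aligned reads with bwa mem, called peaks with MACS2, HOMER, Genrich and SICER2, and merged and annotated them with HOMER; the submitters' processing notes also name Partek 8.0. Whether these steps made the table is not given in the sources used here. The table lists fewer sites than the study describes, so a gene without a peak here is not shown to be unbound. The deposited columns hold chromosome, start and end, region, signed distance to the nearest TSS (bp) and gene identifiers, with no score, p-value or depth. The builds named are mm10 (methods) and both mm9 and mm10 (processing notes). Since ends on 6 chromosomes exceed the length in GRCm38, which is mm10, coordinates were read as mm9. Of 6024 entries, 649 (10.8%) had both ends rounded to 1 Mb, and among the 10 genes this left only Slc16a1 without ends, which was compared by distance with an assumed width of 200 bp.

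Each peak was counted once per library, overlap meant at least 1 bp, width is end minus start, and spans from the TSS are the distance with the width laid evenly on both sides. Of 958 gene names, 955 matched the GRCm38 RefSeq gene table. Named genes are the 10 genes, other pathway list genes with a peak, their neighbours within 10 kb, and the nearest peak of the same library. A gene that this rule selects is left out of the text. The genes and lists were chosen with earlier results of these data known. With 1 library per group, no test between groups was made. Alternatives were other promoter limits, a width minimum, entries as listed, merged peaks, identifiers, other overlap rules and 1 motif form. Peak counting, overlap and motif search were tested on simulated data. Tables were handled with pandas 2.3.3 and numpy 2.4.6 under Python 3.11.15, and figures were drawn with matplotlib 3.10.9.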

Additional observations from a re-analysis of the deposited data

How the results depend on the processing

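Of 37 alternative values, 24 stayed within 1.5 times the reported count and 13 moved. With peaks of at least 200 bp only, the 10 genes had 5 CML-TKI peaks, 1 CML peak and 1 WT peak, and with entries as listed 28, 7 and 5 for CML-TKI, CML and WT. With peaks within 1000 bp of the TSS the pathway lists held 7 genes named by CML-TKI, 3 by CML and 2 by WT, and within 5000 bp 8, 3 and 2 for CML-TKI, CML and WT. With TTCNNNGAA alone the STAT motif was found in 1 of 10 windows, that of Lipe, against 8.3% of all windows. These shifts follow from the narrower or wider set counted. A promoter limit of 5000 bp adds Igf1r to the promoter genes. An alternative chosen after seeing the data, without chromosome Y, gave 5 CML-TKI peaks, 1 CML peak and 0 WT peaks wider than the median of their library. No replicate could be left out. No paired analysis was possible because the groups hold 1 library each.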
